A study of Mus musculus with 30 samples.

Results

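The collagens are the genes for the alpha chains of collagen, taken here as every gene symbol in the count files made of "Col", a number, "a" and a number. There were 44 such genes among the 26264 genes listed, and all 44 passed the filter on low counts that left 17136 genes for testing. By type they fall into 11 fibrillar genes (types I, II, III, V, XI, XXIV and XXVII), 6 basement membrane genes (type IV), 9 FACIT genes (types IX, XII, XIV, XVI, XIX, XX and XXII) and 18 others (types VI, VII, VIII, X, XIII, XV, XVII, XVIII, XXIII, XXV, XXVI and XXVIII). Their messages were counted by RNA sequencing in a muscle of the lower leg that lifts the foot, the tibialis anterior, of female and male mice. Muscles were taken 4, 7, 11 or 15 days after volumetric muscle loss, a surgical injury that removes a piece of the muscle, or were uninjured. Each of the 10 groups, 1 for each sex at each of the 5 times, held 3 libraries. The labels give sex, time and injury but no strain, age or genotype, and they do not say whether libraries came from separate animals, so p-values measure the spread between these libraries. How the uninjured muscles were handled, and whether they came from the other leg of injured mice, is not given in the sources used here.

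A collagen is a triple helix of 3 alpha chains. Fibrillar collagens pack side by side into the cables that carry load in tendon, bone and scar. Type IV builds the sheet-like basement membrane around every muscle fibre, capillary and Schwann cell. FACIT collagens (fibril-associated collagens with interrupted triple helices) coat the surface of fibrils, and type VI forms beaded microfibrils between the basement membrane and the surrounding matrix. In muscle most collagen is made by fibroblasts and related stromal cells, and an excess of fibrillar collagen after injury is called fibrosis.

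Levels are CPM, counts scaled to a common library size by TMM factors, which correct library sizes for a few very abundant genes. For each set of 6 libraries the lowest, median and highest level is given unless stated otherwise. Total counts were 13089999 to 57277336 per library. The library labelled female day 11 replicate 3 had Ddx3y, a Y-linked gene that stood at 0 in the other 14 libraries labelled female, and almost no Xist, so its sex genes go against its label. The library labelled female day 4 replicate 2 was low in mature muscle fibre markers, at 6311 CPM summed over 6 genes where the other day 4 libraries had 26751 to 40151 CPM. Calls of collagens that were lost or gained without either library are named beside the result. In uninjured muscle the fibre markers summed to 244125 to 339202 CPM and no gene of the list was at 0.

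Most collagens were higher after injury. At day 4, 31 of the 44 were called higher and 5 lower than in uninjured muscle, by edgeR's quasi-likelihood test at an adjusted p under 0.05. Over all tested genes, 40.1% were called higher and 33% lower at that day. At day 7, 36 collagens were higher and 1 was lower, where 41.6% and 29.9% of all genes were. At day 11, 38 were higher and 1 was lower, against 42.7% and 29.7% of all genes. At day 15, 33 were higher and 1 was lower, against 39.7% and 29.3% of all genes. In bulk tissue a change in the number of cells of a type and a change in RNA per cell cannot be told apart. Leaving out the library labelled female day 11 replicate 3 left 36 higher at day 11, and leaving out the library labelled female day 4 replicate 2 left 31 higher at day 4.

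The median collagen had a log2 fold change of 2.15 at day 4, 2.56 at day 7, 3.06 at day 11 and 2.56 at day 15. The median of all tested genes was 0.17, 0.24, 0.32 and 0.26 at the same days. By class, the median was 3.72, 4.54, 4.33 and 3.62 for fibrillar genes, 0.36, 0.34, 0.72 and 1.29 for basement membrane genes, 0.12, 1.77, 1.67 and 0.65 for FACIT genes, and 2.86, 3.41, 3.51 and 2.85 for the others. The class medians are descriptions without a test. Fibrillar genes and the mixed class of others thus stood highest throughout, and basement membrane genes stood lowest at days 7 and 11. The 6 injured libraries lay wholly above the 6 uninjured ones for 24 collagens at day 4, 30 at day 7, 30 at day 11 and 27 at day 15, as they did for 31%, 24.9%, 25.8% and 24.1% of all tested genes. They lay wholly below for 2 collagens at day 4 and 1 at day 7, where 25.9% and 19.3% of all genes did, and for none at days 11 and 15, where 20.5% and 21.1% of all genes did. Of all 44, 29 were called higher on each of the 4 days, 5 were called lower on at least 1 day, and Col4a4 and Col4a6 passed the test on none with all libraries in the fit.

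**Figure D1:**
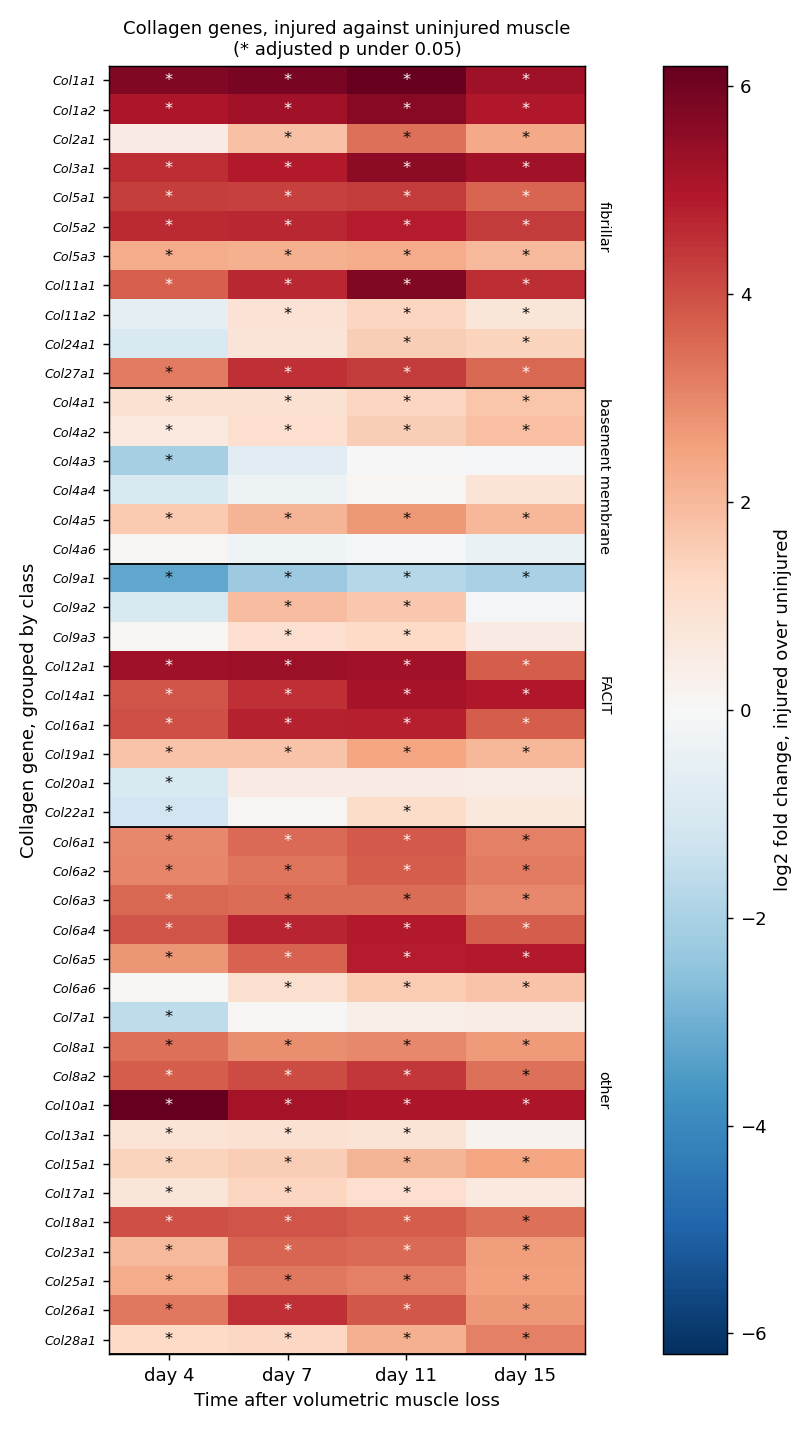
Log2 fold change of each of the 44 collagens (rows, grouped by class) at days 4, 7, 11 and 15 (columns), injured over uninjured muscle, with an asterisk where the adjusted p was under 0.05. Red is higher in injured muscle and blue is lower; most rows are red on every day, and the blue cells with an asterisk belong to Col4a3, Col9a1, Col20a1, Col22a1 and Col7a1.

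Among the fibrillar collagens, 8 of 11 were called higher at day 4, 10 at day 7 and 11 at days 11 and 15. The shares of all genes called higher were 40.1%, 41.6%, 42.7% and 39.7% at days 4, 7, 11 and 15. Col1a1, which encodes the alpha 1 chain present in 2 copies in each type I molecule, had 2506, 3923 and 4916 CPM at day 4, 1869.5, 3546 and 9364 CPM at day 7, 1419, 5315 and 9667 CPM at day 11 and 1495, 2581 and 4542 CPM at day 15, against 30.2, 62.7 and 139 CPM in uninjured muscle. No injured library came near the uninjured range. The log2 fold change was 5.76 ± 0.51 (SE, adjusted p = 4.22e-10) at day 4, 5.87 ± 0.52 at day 7, 6.18 ± 0.52 at day 11 and 5.25 ± 0.50 at day 15. The lowest day 11 value was that of the library labelled female day 11 replicate 3.

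Col1a2, the gene for the other type I chain, had 2364, 3277 and 4248 CPM at day 4 and 1319, 6188 and 8641 CPM at day 11, against 54.8, 96.2 and 213 CPM in uninjured muscle. Its log2 fold changes were 4.99 ± 0.46 (SE, adjusted p = 7.48e-10) and 5.64 ± 0.48 at these days. Col3a1, whose type III product forms the thin fibrils of young repair tissue, had 1856, 2354 and 3250.1 CPM at day 4 and 1861, 3854 and 9630.1 CPM at day 11, against 52.0, 97.3 and 234 CPM in uninjured muscle, with log2 fold changes of 4.58 ± 0.43 (SE, adjusted p = 1.1e-09) and 5.55 ± 0.45. For both genes the injured and uninjured ranges were far apart at every day. The RefSeq windows around the starts of Col1a2 (chr6:4505368-4505667, plus strand) and Col3a1 (chr1:45311288-45311587, plus strand) are shown because these genes rose together with very different sequence at their starts. Windows run 5′ to 3′ along the gene from 250 bases before the start to 50 after it, in build GRCm38.p6, which is not the build of the counts. Capitals mark the TATA box TATAAA, the CCAAT box, the GC box GGGCGG, the AP-1 motif TGANTCA with N any base, and the E-box CAGCTG, on either strand.
Col1a2: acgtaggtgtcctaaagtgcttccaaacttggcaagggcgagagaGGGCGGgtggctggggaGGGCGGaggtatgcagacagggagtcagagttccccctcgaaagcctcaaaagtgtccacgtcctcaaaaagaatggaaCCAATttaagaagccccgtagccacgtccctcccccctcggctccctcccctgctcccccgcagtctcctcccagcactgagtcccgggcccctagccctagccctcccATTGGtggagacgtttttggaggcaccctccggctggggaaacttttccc
Col3a1: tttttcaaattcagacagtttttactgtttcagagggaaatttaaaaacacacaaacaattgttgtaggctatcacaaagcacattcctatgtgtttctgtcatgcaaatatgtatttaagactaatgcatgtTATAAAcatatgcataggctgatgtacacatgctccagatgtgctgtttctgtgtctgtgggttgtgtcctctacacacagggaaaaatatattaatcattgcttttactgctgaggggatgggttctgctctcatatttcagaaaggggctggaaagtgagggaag
The Col1a2 window was 61.0% G or C and held 2 GGGCGG motifs and 2 CCAAT motifs. The Col3a1 window was 37.7% G or C, and the only motif searched that it held was 1 TATAAA. Over 38 windows of 35 collagens found in the RefSeq table, GGGCGG was in 60.5%, CCAAT in 34.2%, TATAAA in 13.2%, CAGCTG in 18.4% and TGANTCA in 2.63%. Over all 32851 windows the shares were 35.7%, 37.4%, 13.6%, 16.3% and 7.81%. Such matches describe letters, not binding.

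Col11a1, best known from the type XI fibrils of cartilage, had 5.49, 8.16 and 27.95 CPM at day 4, 6.66, 19.3 and 42.0 CPM at day 7, 12.2, 41.4 and 74.9 CPM at day 11 and 5.86, 17.9 and 38.3 CPM at day 15, against 0.0763, 0.572 and 2.08 CPM in uninjured muscle. Injured libraries stood above all uninjured ones at each day, and the log2 fold change reached 5.72 ± 0.64 (SE, adjusted p = 2.62e-08) at day 11. The type V genes, whose product starts fibrils and sets their width, rose at all 4 days. Col5a1 had a log2 fold change of 4.31 ± 0.42 at day 4 and 3.62 ± 0.41 at day 15, Col5a2 of 4.64 ± 0.40 and 4.34 ± 0.40, and Col5a3 of 2.30 ± 0.27 and 2.03 ± 0.27 (SE).

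Col2a1, the main collagen of cartilage, was scarce in all groups, at 1.39 to 6.13 CPM at day 11 against 0.229 to 0.551 CPM in uninjured muscle, and passed the test at days 7, 11 and 15 with log2 fold changes of 1.83 ± 0.51, 3.44 ± 0.52 and 2.37 ± 0.51 (SE). Col27a1 rose at all 4 days and was highest at day 7, with a log2 fold change of 4.54 ± 0.39 (SE). Col11a2 and Col24a1 did not pass at day 4, where their log2 fold changes were -0.63 ± 0.34 and -0.95 ± 0.47 (SE), and both were called higher at days 11 and 15. Without male uninjured replicate 3 or female day 4 replicate 3, Col11a2 was called lower at day 4 (edgeR adjusted p as low as 0.0347). Without female uninjured replicate 1, Col24a1 was called lower at day 4 (edgeR adjusted p = 0.0490). The Col24a1 call at day 11, 1.54 ± 0.48 (SE, adjusted p = 0.00584), was lost without the library labelled female day 11 replicate 3, which had 96.6 CPM where the next highest had 79.5 CPM; the log2 fold change was then 0.55 and the adjusted p was 0.193. The Col11a2 call at day 11 held in all 12 fits without a library, while the one at day 7 was lost in 4 and the one at day 15 in 7. Mean levels of 10 of the 11 fibrillar genes were highest at day 11. Fibroblast markers, 7 genes, summed to 454 to 649 CPM at day 4, 495 to 1005 CPM at day 7, 594 to 1567 CPM at day 11 and 849 to 2194 CPM at day 15, against 284 to 457 CPM in uninjured muscle. At day 4, 4 of these 7 were called higher and 1 lower, where 40.1% and 33% of all genes were. Cartilage and bone markers, 10 genes, summed to 40.9 to 149.9 CPM at day 11 against 3.69 to 11.1 CPM in uninjured muscle, with the cartilage gene Snorc at 0 in both. The part of these cell types in the result was not tested.

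**Figure D2:**
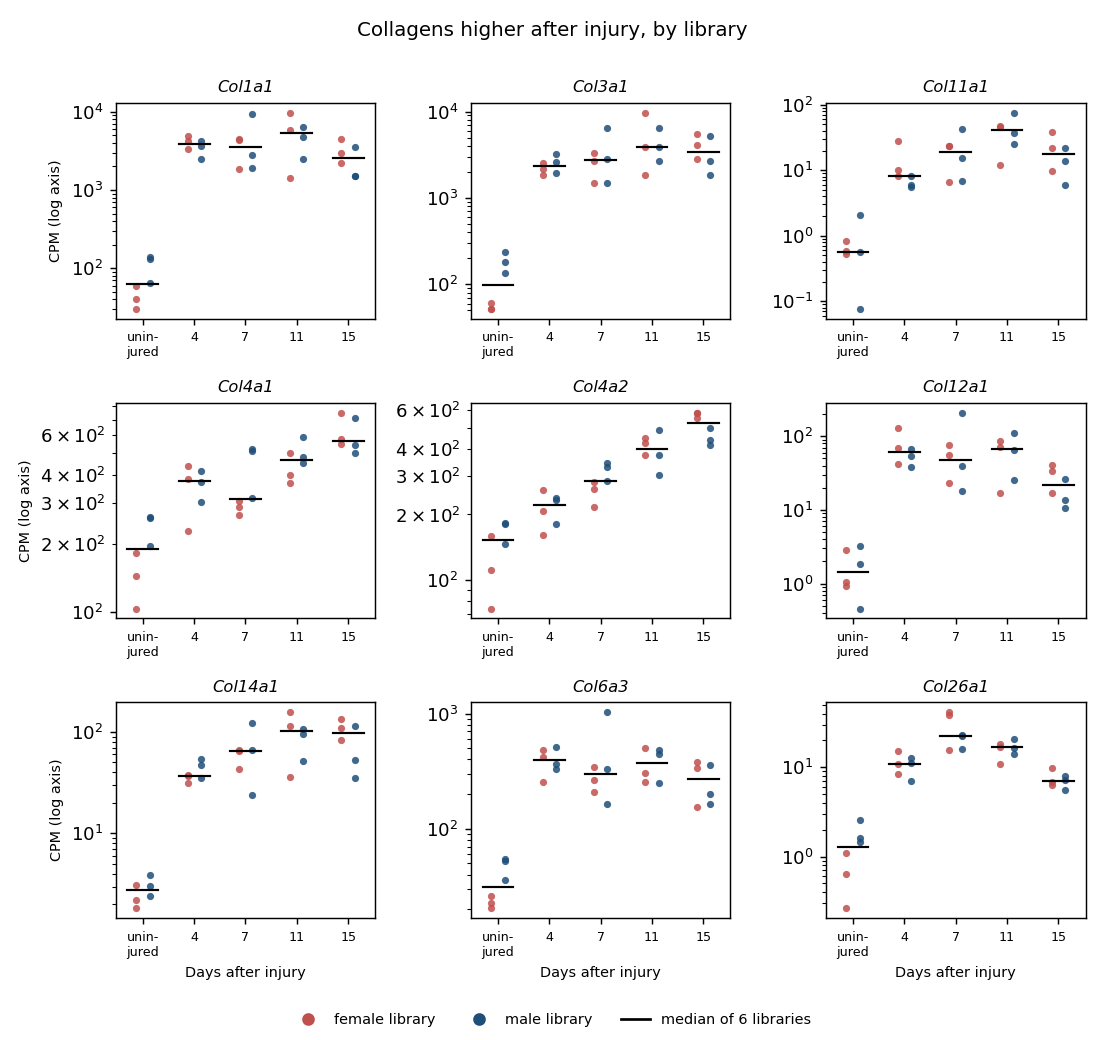
Levels of 9 collagens by library in CPM on a log axis (y) for uninjured muscle and days 4, 7, 11 and 15 (x), with female and male libraries as coloured points and black lines at the median of 6. Injured libraries lie above the uninjured ones at every day for Col1a1, Col3a1, Col11a1, Col12a1, Col14a1, Col6a3 and Col26a1, and Col4a1 and Col4a2 overlap the uninjured range only at day 4.

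The basement membrane genes had smaller median changes than the fibrillar ones, and 3 of 6 were called higher at each of the 4 days, where 39.7 to 42.7% of all genes were. Col4a1 and Col4a2 encode the chains of the type IV network found in nearly all basement membranes. They lie head to head on opposite strands with starts 21 bases apart, and their windows share 78 bases. In the RefSeq annotation each start lies within the first bases of the other gene, so the genes overlap there. Both windows are shown for that reason, Col4a1 at chr8:11312777-11313076, minus strand, and Col4a2 at chr8:11312555-11312854, plus strand, in GRCm38.p6, with the same motifs in capitals.
Col4a1: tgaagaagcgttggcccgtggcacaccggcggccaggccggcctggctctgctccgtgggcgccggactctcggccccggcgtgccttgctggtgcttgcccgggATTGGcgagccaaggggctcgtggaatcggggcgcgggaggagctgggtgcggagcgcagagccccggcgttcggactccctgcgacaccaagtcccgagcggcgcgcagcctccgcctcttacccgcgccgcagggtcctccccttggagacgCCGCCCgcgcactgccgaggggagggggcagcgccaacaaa
Col4a2: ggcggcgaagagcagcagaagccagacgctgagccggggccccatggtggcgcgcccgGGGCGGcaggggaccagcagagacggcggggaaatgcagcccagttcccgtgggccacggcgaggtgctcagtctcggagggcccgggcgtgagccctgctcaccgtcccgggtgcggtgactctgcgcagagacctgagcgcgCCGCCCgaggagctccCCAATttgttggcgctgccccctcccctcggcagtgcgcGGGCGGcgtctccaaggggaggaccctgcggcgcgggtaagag
The Col4a1 window was 74.0% G or C and the Col4a2 window 73.7%, and neither held TATAAA. Col4a1 had 226, 377 and 437 CPM at day 4, 266, 313 and 519 CPM at day 7, 368, 466 and 589.6 CPM at day 11 and 499.5, 562 and 752 CPM at day 15, against 104, 189 and 260.4 CPM in uninjured muscle. Injured and uninjured libraries overlapped at day 4 only. The log2 fold change was 0.95 ± 0.19 (SE, adjusted p = 7.88e-05) at day 4 and 1.71 ± 0.19 (SE, adjusted p = 4.3e-08) at day 15.

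Col4a2 had 162, 221 and 259 CPM at day 4, 217, 284 and 346 CPM at day 7, 303, 399 and 487 CPM at day 11 and 418, 525 and 587 CPM at day 15, against 74.1, 153 and 184 CPM in uninjured muscle. Its injured libraries likewise cleared the uninjured range at days 7, 11 and 15 but not at day 4. The log2 fold change was 0.61 ± 0.17 (SE, adjusted p = 0.0028) at day 4 and 1.86 ± 0.18 (SE, adjusted p = 3.98e-09) at day 15. Both genes were also called higher at day 15 than at day 4, by 0.76 ± 0.19 for Col4a1 and 1.26 ± 0.17 for Col4a2 on the log2 scale (SE). Their mean levels were highest at day 15, as were those of 4 of the 6 basement membrane genes.

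Col4a5, a chain of the type IV network that kidney filters depend on, had 3.87, 5.22 and 6.39 CPM at day 4 and 8.46, 10.9 and 13.9 CPM at day 11, against 0.368, 1.80 and 4.43 CPM in uninjured muscle. The groups overlapped at day 4 and not at day 11, where the log2 fold change was 2.68 ± 0.23 (SE, adjusted p = 5.04e-10). Its partner chain Col4a3 went the other way at day 4, with 0.135, 0.799 and 1.34 CPM against 1.24, 2.61 and 6.56 CPM in uninjured muscle and a log2 fold change of -2.05 ± 0.61 (SE, adjusted p = 0.00443). The 2 sets of libraries overlapped, and the library labelled female day 4 replicate 2 was the lowest. At day 7 the Col4a3 log2 fold change was -0.65 ± 0.59 (SE, adjusted p = 0.327), but without female day 7 replicate 1, the highest library, it was -1.87 with an adjusted p of 0.00373. At day 15 it was -0.07 (adjusted p = 0.931). Col4a4 stood at 0.183 to 0.602 CPM at day 4 and 0.861 to 2.35 CPM at day 15, against 0.352 to 1.55 CPM in uninjured muscle. Its day 4 log2 fold change was -0.96 ± 0.47 (SE, adjusted p = 0.0686), and it was called lower without the library labelled female day 4 replicate 2 or without male uninjured replicate 3, with an adjusted p as low as 0.0359. For Col4a6 the levels were 0.221 to 0.526 CPM and 0.122 to 0.388 CPM at the same days, against 0.0417 to 0.801 CPM. Endothelium markers, 6 genes, summed to 319.6 to 480.0 CPM at day 4 and 704 to 925 CPM at day 15, against 402 to 685 CPM in uninjured muscle, and Schwann cell markers, 6 genes, to 19.3 to 51.4 CPM and 104 to 241 CPM, against 53.0 to 232 CPM. Their part in the type IV levels was not tested.

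The FACIT genes split. At day 4, 4 of 9 were called higher and 3 lower, a mix close to the 40.1% and 33% of all genes. At days 7, 11 and 15, 6, 7 and 4 were higher and 1 was lower each time. The shares of all genes were then 41.6%, 42.7% and 39.7% higher and 29.9%, 29.7% and 29.3% lower. Col12a1, Col14a1, Col16a1 and Col19a1 rose on all 4 days, whereas Col9a1 fell on all 4 days. Col12a1, whose product binds type I fibrils and is common where tissue is under tension, had 38.6, 60.8 and 129 CPM at day 4, 18.3, 47.7 and 210.3 CPM at day 7, 17.1, 67.9 and 109.7 CPM at day 11 and 10.7, 21.5 and 40.2 CPM at day 15, against 0.458, 1.45 and 3.19 CPM in uninjured muscle. Its injured libraries were all above the uninjured ones, with log2 fold changes of 5.26 ± 0.63 (SE, adjusted p = 5.17e-08) at day 4 and 3.73 ± 0.59 at day 15. From day 4 to day 15 it fell by 1.53 ± 0.52 on the log2 scale (SE, adjusted p = 0.0164), a call lost without the library labelled female day 4 replicate 2 (adjusted p = 0.0520).

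Col14a1, the close relative that also binds fibril surfaces, had 31.6, 37.0 and 54.0 CPM at day 4, 36.3, 102 and 156 CPM at day 11 and 35.2, 96.6 and 135 CPM at day 15, against 1.84, 2.74 and 3.90 CPM in uninjured muscle. It thus moved in the opposite direction between days 4 and 15, where the log2 fold change was 1.10 ± 0.33 (SE, adjusted p = 0.00772). Against uninjured muscle its log2 fold change was 5.10 ± 0.40 (SE, adjusted p = 1.83e-10) at day 11. Col16a1 had 71.5, 85.7 and 116 CPM at day 4, 65.8, 176 and 228 CPM at day 11 and 47.6, 74.9 and 120.1 CPM at day 15, against 3.29, 5.23 and 8.99 CPM in uninjured muscle, with a log2 fold change of 4.81 ± 0.42 (SE, adjusted p = 8.3e-10) at day 11. The groups did not overlap at any day for either gene. Col19a1, a scarcer FACIT gene, was called higher at all 4 days, by 1.75 ± 0.38 at day 4 and 2.46 ± 0.39 at day 11 on the log2 scale (SE).

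Col9a1 encodes a chain of type IX, which decorates the type II fibrils of cartilage. It had 0.348, 1.00 and 1.43 CPM at day 4, 1.19, 1.57 and 4.23 CPM at day 7, 0.695, 1.96 and 8.99 CPM at day 11 and 1.00, 1.79 and 5.59 CPM at day 15, against 4.96, 8.63 and 20.5 CPM in uninjured muscle. All injured libraries lay below all uninjured ones at days 4 and 7, and the ranges overlapped at days 11 and 15. The log2 fold change was -3.22 ± 0.42 (SE, adjusted p = 1.79e-07) at day 4, -2.27 ± 0.40 (SE, adjusted p = 2.1e-05) at day 7, -1.79 ± 0.39 (SE, adjusted p = 0.000264) at day 11 and -2.02 ± 0.40 (SE, adjusted p = 9.62e-05) at day 15. These 4 calls held when any single library was left out. Col9a1 was also called higher at day 15 than at day 4 (edgeR adjusted p = 0.0155). In fits without 1 library the log2 fold change between these days was 0.94 to 1.37. That call was lost without female day 4 replicate 1 or male day 15 replicate 3.

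The other 2 chains of type IX did not follow Col9a1. Col9a2 had 2.12, 3.32 and 5.75 CPM at day 7, against 0.305, 0.631 and 2.66 CPM in uninjured muscle, and was called higher at days 7 and 11, by 1.94 ± 0.47 and 1.67 ± 0.47 on the log2 scale (SE). Col9a3 was called higher at the same 2 days, by 1.06 ± 0.32 and 1.24 ± 0.32 (SE). At day 4 the log2 fold changes were -0.95 ± 0.48 for Col9a2 and 0.12 ± 0.32 for Col9a3 (SE), neither past the test. Without male uninjured replicate 3 or female day 4 replicate 3, Col9a2 was called lower at day 4 (edgeR adjusted p as low as 0.0194). The gene next to Col9a1 in the annotation, Col19a1, was among those that rose.

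Col22a1, whose product sits where muscle fibres join tendon, had 1.82, 6.42 and 9.82 CPM at day 4 and 8.28, 23.8 and 75.3 CPM at day 11, against 3.28, 13.2 and 28.1 CPM in uninjured muscle. The ranges overlapped at both days. It was called lower at day 4, -1.18 ± 0.52 (SE, adjusted p = 0.0444), and higher at day 11, 1.15 ± 0.52 (SE, adjusted p = 0.0488), both close to the threshold. The first call was lost without female uninjured replicate 1, male uninjured replicate 1 or 2, female day 4 replicate 1 or 2, or male day 4 replicate 1 or 3, with adjusted p up to 0.166. The second was lost without female uninjured replicate 2 or 3, male uninjured replicate 3, female day 11 replicate 1 or 3, or male day 11 replicate 1, with adjusted p up to 0.249. Col20a1 had 2.64, 6.74 and 8.70 CPM at day 4, against 7.75, 10.6 and 23.6 CPM in uninjured muscle, overlapping slightly, with a log2 fold change of -0.93 ± 0.27 (SE, adjusted p = 0.00325). At days 7, 11 and 15 it did not pass the test, with log2 fold changes of 0.51, 0.52 and 0.45; without male uninjured replicate 1, the highest uninjured library, each of the 3 passed as higher (adjusted p = 0.0114, 0.00994 and 0.0187). Leaving out male day 7 replicate 2 also gave a call at day 7. Tendon markers, 6 genes, summed to 177 to 465 CPM at day 4 and 560.3 to 1919 CPM at day 11, against 90.7 to 309.8 CPM in uninjured muscle, and their part in these levels was not tested. Much of that sum was 1 gene, Thbs4, which averaged 106 ± 48.5 CPM in uninjured muscle and 400 ± 145 CPM at day 7 (SD, n = 6 each).

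In the mixed class, 16 of 18 genes were called higher at day 4, 17 at days 7 and 11 and 15 at day 15. Of all genes, 40.1%, 41.6%, 42.7% and 39.7% were called higher at days 4, 7, 11 and 15. Type VI stood out by level. Col6a1, 1 of the 3 main chains of the microfibrils that tie muscle fibres to their matrix, had 261, 393 and 458 CPM at day 4 and 354, 535 and 1165 CPM at day 11, against 31.1, 39.8 and 81.0 CPM in uninjured muscle. Col6a2 had 307, 409 and 456 CPM and 223, 573 and 1135 CPM at those days, against 26.7, 44.7 and 93.3 CPM. Col6a3 had 255, 391 and 513 CPM and 247, 374 and 505 CPM, against 20.4, 30.9 and 55.0 CPM. None of these injured ranges touched the uninjured one. The log2 fold changes at day 11 were 3.79 ± 0.35 for Col6a1, 3.75 ± 0.36 for Col6a2 and 3.48 ± 0.36 for Col6a3 (SE, adjusted p of 1.77e-09, 2.98e-09 and 9.04e-09).

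Col6a4, Col6a5 and Col6a6 encode chains that can take the place of the alpha 3 chain. Col6a4 had 4 counts over the 6 uninjured libraries, 2 if counts stand for read pairs, and its ratio of summed levels to uninjured muscle was 34.8 (95% counting interval 9.41 to 291) at day 11. Col6a5 had 0.278, 0.492 and 0.784 CPM at day 4, 0.377, 0.983 and 1.33 CPM at day 7, 1.11, 1.92 and 4.14 CPM at day 11 and 0.932, 2.13 and 4.20 CPM at day 15, against 0, 0.0460 and 0.305 CPM in uninjured muscle, where 3 of 6 libraries had none. Its ratio was 4.89 (95% counting interval 2.28 to 12.5) at day 4 and 23.4 (95% counting interval 11.1 to 59.1) at day 15, and it was called higher at day 15 than at day 4, by 2.21 ± 0.46 (SE, adjusted p = 0.000317) on the log2 scale. Col6a6 had 2.15, 5.27 and 8.75 CPM at day 15, against 0.542, 1.70 and 4.49 CPM in uninjured muscle, with overlapping ranges, and was called higher at days 7, 11 and 15, with a log2 fold change of 1.78 ± 0.33 (SE) at the last. The 3 genes lie next to each other and resemble each other in sequence, and how the counting treated reads shared between genes is not given.

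Col26a1 peaked early. It had 7.10, 11.0 and 15.4 CPM at day 4, 15.6, 22.7 and 41.5 CPM at day 7, 11.0, 16.8 and 20.6 CPM at day 11 and 5.50, 7.02 and 9.86 CPM at day 15, against 0.264, 1.27 and 2.57 CPM in uninjured muscle. All injured libraries stood above all uninjured ones. The log2 fold change was 4.51 ± 0.30 (SE, adjusted p = 2e-11) at day 7, and the gene was called higher at day 7 than at day 4, by 1.22 ± 0.25 (SE, adjusted p = 0.00105), and lower at day 15 than at day 11, with a log2 fold change of -1.15 ± 0.26 (SE, adjusted p = 0.011).

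Col7a1 encodes type VII, the anchoring fibril collagen of skin. It had 28.3, 37.1 and 48.1 CPM at day 4, 73.4, 107 and 213 CPM at day 7, 80.5, 123 and 272 CPM at day 11 and 96.9, 145 and 237 CPM at day 15, against 63.2, 108 and 235 CPM in uninjured muscle. Every day 4 library was below every uninjured one, and the ranges overlapped at all later days. The log2 fold change was -1.58 ± 0.27 (SE, adjusted p = 1.31e-05) at day 4 and 0.47 ± 0.27 (SE, adjusted p = 0.12) at day 15, which became a call in a fit of only the compared groups (0.44, adjusted p = 0.0362), and day 15 was above day 4 by 2.05 ± 0.28 (SE, adjusted p = 2.37e-06). Its highest day 11 value, 272 CPM, was that of the library labelled female day 11 replicate 3. Epidermis markers, 6 genes, summed to 8.07 to 11.4 CPM at day 4 and 11.8 to 33.8 CPM at day 15, against 9.79 to 14.4 CPM in uninjured muscle, where Krt5, Krt14, Krt1 and Dsp had no counts.

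The calls of the 5 genes called lower depend in part on the scaling. With RLE scaling, an alternative to TMM, 4 collagens were lower at day 4 and Col22a1 was not called (-1.15, edgeR adjusted p = 0.0506). TMM factors averaged 0.527 in uninjured libraries and 1.30, 1.19, 1.16 and 1.08 at days 4, 7, 11 and 15. With library size alone the median log2 fold change of all genes at day 4 was 1.47, where it was 0.17 with TMM, and 12603 genes were called higher and 1482 lower, where 6864 and 5662 were with TMM. On that scale 35 collagens were higher and 1, Col9a1, was lower at day 4. The log2 fold changes at day 4 were then -0.76 for Col4a3, -0.28 for Col7a1, 0.11 for Col22a1 and 0.36 for Col20a1, all below the median of all genes. The Col9a1 call held at days 4, 7 and 15 but not at day 11, where its log2 fold change was -0.67. At days 7, 11 and 15 Col7a1 was then called higher, by 1.24, 1.53 and 1.505, where the median of all genes was 1.42, 1.46 and 1.30. Col20a1 was also called higher at these days, by 1.69, 1.68 and 1.51, and Col22a1 at days 7 and 15, by 1.25 and 1.69. With TMM factors, leaving out male uninjured replicate 3 gave 8 collagens called lower at day 4. Mature fibre markers, 6 genes, summed to 6311 to 40151 CPM at day 4 and 36068 to 91577 CPM at day 15, against 244125 to 339202 CPM in uninjured muscle, and their part in the lower collagen levels was not tested.

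**Figure D3:**
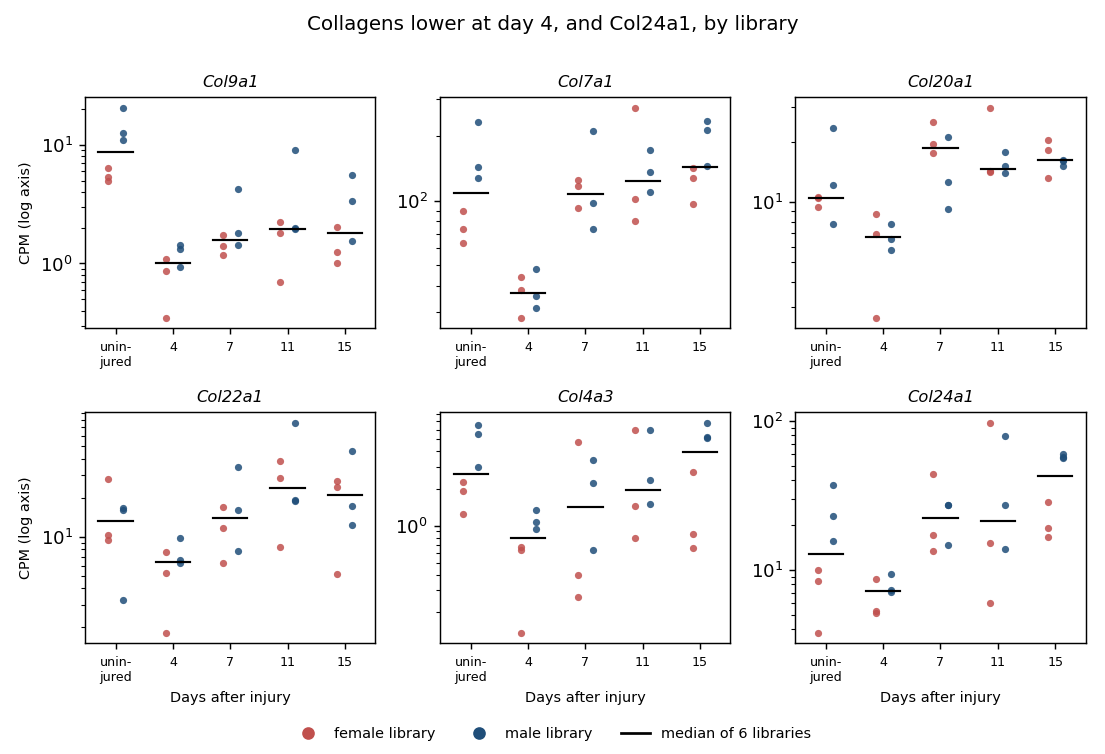
Levels by library in CPM on a log axis (y) for uninjured muscle and days 4, 7, 11 and 15 (x) of the 5 collagens called lower at day 4 and of Col24a1; points are libraries by sex and black lines are medians of 6. The medians of Col9a1 lie below the uninjured one at each day and are lowest at day 4. Col7a1 dips at day 4 alone. The highest day 11 point of Col24a1, 96.6 CPM, is the library labelled female day 11 replicate 3.

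The remaining members of the mixed class are given by their changes. The basement membrane zone collagens Col15a1 and Col18a1 both rose at all 4 days, Col18a1 most at day 4 (3.97 ± 0.34) and Col15a1 most at day 15 (2.44 ± 0.18, log2 fold change with SE). The short-chain network genes Col8a1 and Col8a2 rose at all 4 days, with log2 fold changes of 3.41 ± 0.31 and 3.73 ± 0.59 at day 4 (SE). Col10a1, which marks the enlarged chondrocytes of growing bone, had 2 counts over all uninjured libraries and 0.399 to 1.40 CPM at day 4, a ratio of 54.7 (95% counting interval 9.67 to 2174). Of the membrane-spanning collagens, Col23a1 rose at all 4 days, by 1.99 ± 0.30 at day 4 and 3.53 ± 0.32 at day 11, and Col25a1 by 2.32 ± 0.32 and 3.14 ± 0.33, while Col13a1 and Col17a1, which passed at days 4, 7 and 11 and not at day 15, reached 0.93 ± 0.25 and 1.35 ± 0.26 at day 7 (log2 fold change with SE). Col28a1, a collagen of peripheral nerve, rose at all 4 days and stood highest at day 15, at 3.51, 8.69 and 10.9 CPM against 0.572, 0.776 and 2.13 CPM in uninjured muscle, with a log2 fold change of 3.11 ± 0.37 (SE).

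The make-up of the collagen pool changed with injury. All collagens together took 0.0297, 0.0563 and 0.102% of all counts in uninjured muscle, 1.26, 1.75 and 2.22% at day 4, 0.733, 1.55 and 4.13% at day 7, 1.07, 2.37 and 4.17% at day 11 and 0.867, 1.46 and 2.38% at day 15. Every injured library was above every uninjured one. Of the collagen counts, the median share of fibrillar genes was 35.8% without injury, then 82.0%, 79.9%, 83.3% and 76.6% from day 4 to day 15. Basement membrane genes took 30.1%, 4.51%, 5.36%, 4.10% and 9.48% in the same order, and Col7a1 alone took 10.2% in uninjured muscle and 0.318% at day 4. Type VI moved less, at 12.5%, 9.03%, 9.76%, 8.48% and 8.16% in that order. These shares do not depend on the scaling factors and carry no test.

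**Figure D4:**
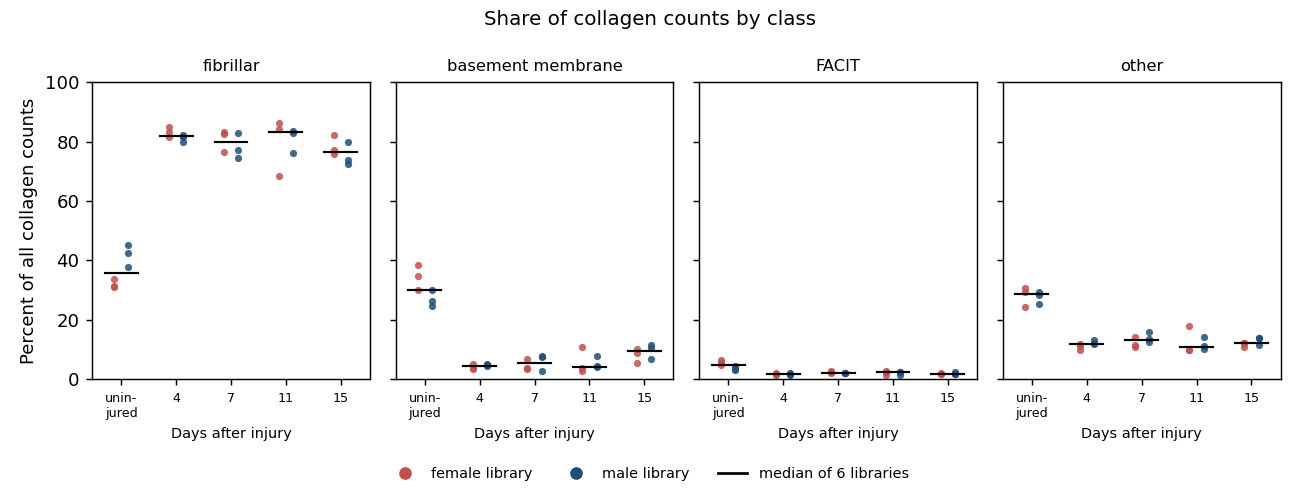
Percent of all collagen counts (y) taken by fibrillar, basement membrane, FACIT and other collagens in each library, for uninjured muscle and days 4, 7, 11 and 15 (x); points are libraries by sex and black lines are medians of 6. The fibrillar share is 31.0 to 45.0% in uninjured libraries and 68.5 to 86.2% in injured ones.

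Per kilobase of exon, the order of the genes changed too. In uninjured muscle Col4a1 came first with 25.5 ± 8.34 CPM per kilobase and Col4a2 second with 21.6 ± 6.47 (mean ± SD, n = 6), which lie within each other's spread. Col3a1, Col1a1, Col7a1 and Col6a1 followed at 12.1 ± 7.83, 11.9 ± 7.11, 11.9 ± 6.16 and 11.3 ± 4.71, again within their spread. After injury Col1a1 came first at each day, with 581 ± 126, 629 ± 427, 776 ± 449 and 413 ± 184 CPM per kilobase at days 4, 7, 11 and 15, and Col1a2 and Col3a1 held the next 2 places. Only at day 4 did Col1a1 stand clear of the second gene by more than both SDs, with Col1a2 at 271 ± 50.7 CPM per kilobase. Exon lengths were taken from a gene annotation of GRCm38, not the one the authors used.

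Count ratios within a library do not depend on the scaling either, and 7 pairs of chains were compared at 4 days by two-sided exact permutation tests of 6 injured against 6 uninjured libraries, adjusted over the 28 tests. The smallest p that such a test can give is 0.00216. Col1a2 to Col1a1 was 1.34, 1.51 and 1.82 in uninjured muscle, 0.772, 0.901 and 0.959 at day 4, 0.806, 0.954 and 1.18 at day 7, 0.894, 1.06 and 1.27 at day 11 and 1.18, 1.24 and 1.38 at day 15. The balance thus tipped towards Col1a1 after injury, most at day 4, with the injured libraries below all uninjured ones at days 4, 7 and 11. On the log2 scale the differences were -0.79, -0.64, -0.55 and -0.29 (exact permutation, adjusted p = 0.00357 at days 4, 7 and 11 and 0.00909 at day 15).

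Col3a1 to Col1a1 was 0.871, 1.60 and 2.05 in uninjured muscle, 0.445, 0.656 and 0.779 at day 4, 0.621, 0.760 and 1.00 at day 7, 0.666, 1.00 and 1.31 at day 11 and 1.22, 1.32 and 1.78 at day 15. It was lower than in uninjured muscle by 1.23 at day 4, 0.95 at day 7 and 0.63 at day 11 on the log2 scale (exact permutation, adjusted p = 0.00357, 0.00673 and 0.0346). At day 15 the difference was -0.10 (adjusted p = 0.634, exact permutation). The day 11 call was lost without any 1 of female uninjured replicates 2 and 3, male uninjured replicates 2 and 3, female day 11 replicate 1 and male day 11 replicate 2 (adjusted p up to 0.0664).

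Col5a1, Col6a3 and Col4a1 all fell relative to Col1a1 on all 4 days, with log2 differences of -1.51 to -1.87 for Col5a1, -2.26 to -2.56 for Col6a3 and -3.50 to -4.86 for Col4a1 (exact permutation, adjusted p = 0.00357 in each of the 12 tests). Col4a2 to Col4a1, 2 genes with starts 21 bases apart, was 0.541, 0.592 and 0.715 at day 4 against 0.703, 0.734 and 0.874 in uninjured muscle, a log2 difference of -0.32 (exact permutation, adjusted p = 0.00909). At days 7, 11 and 15 the difference was 0.09, 0.20 and 0.18 and did not pass; leaving out male day 11 replicate 2 or male day 15 replicate 1 made the day 11 or the day 15 difference pass (adjusted p = 0.0303 and 0.0441, exact permutation). Col6a1 to Col6a3 was 0.818, 0.981 and 1.13 at day 4 against 1.21, 1.44 and 1.56 in uninjured muscle, a log2 difference of -0.54 (exact permutation, adjusted p = 0.00357). Its later differences were 0.10, 0.25 and 0.17 and did not pass, except that the day 11 one passed without male day 11 replicate 2 (adjusted p = 0.0202, exact permutation).

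**Figure D5:**
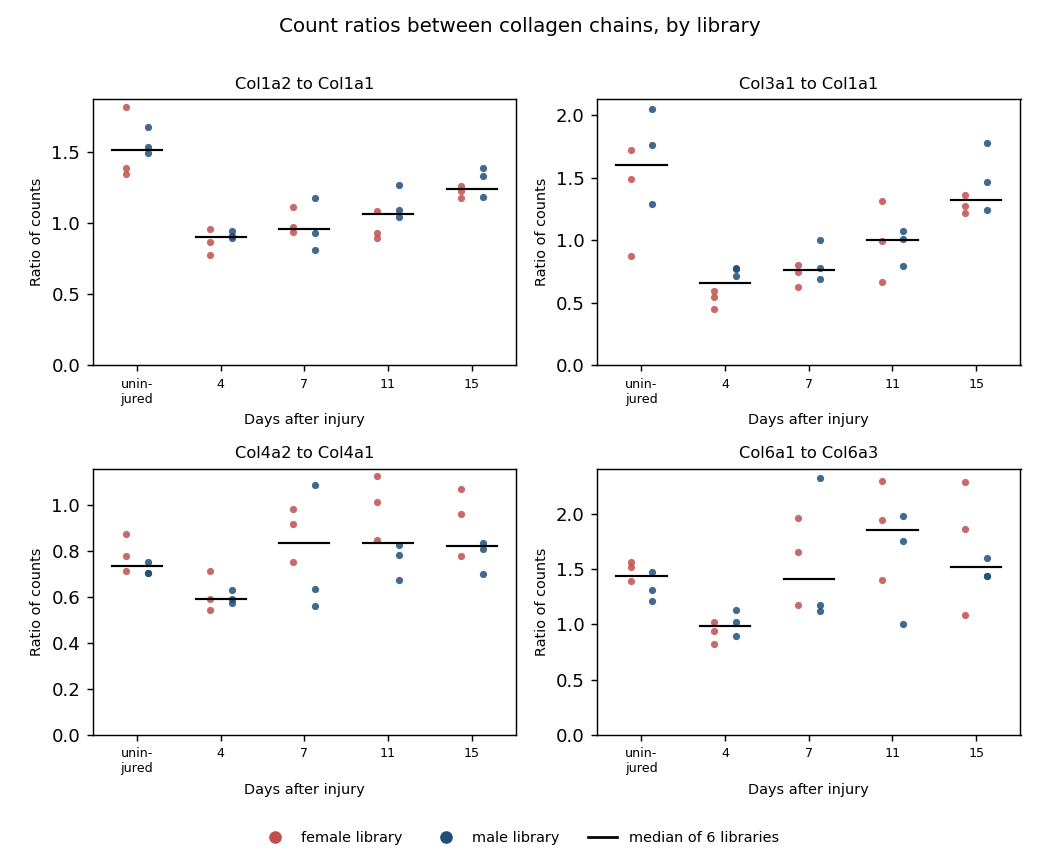
Ratio of the counts of 2 collagen chains (y, linear from 0) in each library for uninjured muscle and days 4, 7, 11 and 15 (x), for 4 pairs; points are libraries by sex and black lines are medians of 6. Col1a2 to Col1a1 and Col3a1 to Col1a1 are lowest at day 4 and climb towards day 15, and the 2 lower panels dip at day 4 only.

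Between days the collagens changed less than against uninjured muscle. From day 4 to day 7, 12 were called higher and 1 lower, where 18.5% and 16.7% of all genes were. The 12 included 4 fibrillar genes (Col2a1, Col11a2, Col24a1 and Col27a1), 3 FACIT genes (Col9a2, Col9a3 and Col20a1) and Col7a1, which recovered by 1.67 ± 0.27 on the log2 scale (SE). The largest was Col9a2, 2.89 ± 0.47 (SE, adjusted p = 0.000196), and the 1 lower was Col10a1, -1.06 ± 0.41 (SE, adjusted p = 0.0499), whose call was lost in 10 of 12 fits without a library. The Col2a1 call was lost in 6 of 12 such fits (adjusted p up to 0.103), that of Col9a3 in 4 (up to 0.105) and that of Col6a6 in 8 (up to 0.0698). The library labelled female day 4 replicate 2 was among those whose absence ended each of these 4 calls, and without it 9 collagens were higher and 0 lower. Leaving out male day 7 replicate 2, the library highest in Col6a2 at day 7, gave 17 higher and 2 lower. From day 7 to day 11 edgeR called none of 44, with 8 at an unadjusted p under 0.05, and DESeq2 called none, with 8 at an unadjusted p under 0.05; of all genes 0.0408% were called higher and 0.0175% lower.

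From day 11 to day 15, 2 collagens were called lower and none higher, where 2.25% and 2% of all genes were. They were Col9a2, -1.78 ± 0.47 (SE, adjusted p = 0.0297), and Col26a1, named above. Without the library labelled female day 11 replicate 3, 5 were lower, with Col12a1, Col16a1 and Col23a1 added, and 1, Col28a1, was higher; without male day 11 replicate 1, 4 were lower. The Col9a2 call was lost without female day 11 replicate 2, male day 11 replicate 2 or 3, female day 15 replicate 2 or 3, or male day 15 replicate 2 or 3, which left 1 or 2 lower. From day 4 to day 15, 16 were higher and 4 lower, where 25.1% and 27% of all genes were. The 16 included 4 of the 6 type IV genes, Col4a1, Col4a2, Col4a3 (1.98 ± 0.62) and Col4a4 (1.82 ± 0.46, log2 fold change with SE). The 4 lower were Col12a1, Col8a1, Col10a1 and Col13a1, and no call in the lower direction was left without the library labelled female day 4 replicate 2; 1 was left without female day 15 replicate 1, and 2 without female day 15 replicate 3 or male day 15 replicate 3.

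Females and males differed in the uninjured level of 4 collagens, all lower in females, where 0.461% of all genes were called lower and 0.181% higher. Col4a5 had 0.368, 1.08 and 1.06 CPM in uninjured females and 4.43, 3.17 and 2.52 CPM in uninjured males, without overlap, 4.00-fold lower in females by the fit (adjusted p = 0.00313). Col6a6 had 0.689, 0.542 and 0.791 CPM in uninjured females and 2.61, 4.49 and 2.67 CPM in uninjured males, a log2 difference of -2.27 ± 0.48 (SE, adjusted p = 0.0259). The other 2 were Col5a3, -1.61 ± 0.38 (SE, adjusted p = 0.0446), and Col15a1, -1.08 ± 0.24 (SE, adjusted p = 0.0336). With an unadjusted p under 0.05 there were 21 collagens, and all 21 were lower in females. The share of all genes at that threshold was not counted, here or for the other counts at an unadjusted p. The Col4a5 call held in all 6 fits without a library, and the other 3 were each lost in 4 or 5 of them, so that without any 1 of the 3 female libraries or without male uninjured replicate 2 a single call was left and without male uninjured replicate 1 there were 2.

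The response to injury, as the log2 fold change in females minus that in males, differed for 3 collagens. For Col4a5 it was larger in females by 2.32 ± 0.44 (SE, adjusted p = 0.029) at day 7 and 2.61 ± 0.44 (SE, adjusted p = 0.00734) at day 15. At day 15 it was also larger for Col5a3, 2.43 ± 0.53 (SE, adjusted p = 0.0473), and Col15a1, 1.75 ± 0.34 (SE, adjusted p = 0.0269). These are the genes that stood lower in uninjured females, and both comparisons share those libraries. Col4a5 had 8.88, 10.9 and 6.36 CPM in females at day 15 and 7.41, 3.79 and 5.88 CPM in males. Among all genes 0.105% were called higher and 0.0175% lower in the day 7 comparison and 0.193% and 0.0175% in the day 15 one. At days 4 and 11, where 0.0408% and 0.0584% of all genes were called higher and 0.00584% and 0% lower, edgeR called none, with 8 and 11 collagens at an unadjusted p under 0.05, and DESeq2 called none and 2. Col4a5 at day 11 was close to the threshold (adjusted p = 0.0503) and was called in 3 of 12 fits without a library (adjusted p as low as 0.0347). The day 11 values include the library labelled female day 11 replicate 3. Jointly over the 4 days, that library included, the smallest adjusted p was 0.0793, for Col4a5. The Col4a5 call at day 15 held in all 12 fits without a library, the one at day 7 was lost in 6, that of Col15a1 in 7 and that of Col5a3 in 11. Counting genes called at any of the 4 days, there were 5 without female day 7 replicate 1. A single gene was left without female or male uninjured replicate 1 or 2, male day 4 replicate 3, female day 15 replicate 3, or male day 15 replicate 2 or 3.

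Genes that make, bind and break down collagen were counted from 5 lists, with p-values adjusted over all genes. Of 19 tested genes for folding and hydroxylation, 15 were higher and 2 lower at day 4, 13 and 2 at day 7, 14 and 2 at day 11, and 11 and 1 at day 15. Of all genes, 40.1% were higher and 33% lower at day 4, 41.6% and 29.9% at day 7, 42.7% and 29.7% at day 11, and 39.7% and 29.3% at day 15. P4ha3, a prolyl hydroxylase subunit, averaged 30.1 ± 18.9 CPM at day 7 and 0.0429 ± 0.0732 CPM in uninjured muscle (SD, n = 6 each). Fkbp10, a chaperone of procollagen, averaged 109.7 ± 47.2 CPM at day 7 and 5.12 ± 0.950 CPM in uninjured muscle (SD, n = 6 each), and P3h3, a relative of the prolyl hydroxylases, 80.9 ± 40.1 CPM at day 7 and 5.74 ± 2.64 CPM in uninjured muscle (SD, n = 6 each). Of 14 tested genes for secretion and propeptide processing, 10 were higher and 3 lower at day 4. The counts were 9 and 4 at days 7 and 11, and 9 and 3 at day 15. Adamts14, an enzyme of this list, trims the amino end of procollagens. It averaged 38.2 ± 22.5 CPM at day 7 and 1.72 ± 1.10 CPM in uninjured muscle (SD, n = 6 each). Pcolce, which speeds trimming at the other end, averaged 312 ± 130.2 CPM at day 7 and 40.1 ± 10.2 CPM in uninjured muscle (SD, n = 6 each). Creb3l1, a transcription factor that drives procollagen secretion genes, averaged 45.8 ± 23.8 CPM at day 7 and 4.36 ± 2.50 CPM in uninjured muscle (SD, n = 6 each).

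Of 16 tested genes for crosslinking and fibril assembly, 11 were higher and 1 lower at day 4, 12 and 0 at day 7, and 15 and 0 at days 11 and 15. Loxl3, a lysyl oxidase relative, averaged 81.5 ± 48.3 CPM at day 7 and 4.21 ± 1.64 CPM in uninjured muscle (SD, n = 6 each), and Fn1, the fibronectin on which collagen fibrils assemble, averaged 726 ± 602 CPM at day 7 and 28.9 ± 7.74 CPM in uninjured muscle (SD, n = 6 each). Thbs2, a thrombospondin needed for normal fibrils, averaged 161 ± 112 CPM at day 7 and 6.59 ± 3.79 CPM in uninjured muscle (SD, n = 6 each). Of 11 tested receptors, 8 were higher and 2 lower at days 4, 7 and 11, and 7 and 1 at day 15. Itga11, an integrin chain that binds type I collagen, averaged 32.7 ± 18.2 CPM at day 7 and 3.15 ± 1.12 CPM in uninjured muscle (SD, n = 6 each). Mrc2, a receptor that takes up collagen, averaged 97.0 ± 42.6 CPM at day 7 and 11.1 ± 2.98 CPM in uninjured muscle (SD, n = 6 each). Lair1, an inhibitory receptor of immune cells, averaged 11.1 ± 5.97 CPM at day 7 and 0.213 ± 0.159 CPM in uninjured muscle (SD, n = 6 each). Of 17 tested genes for breakdown and uptake, 14 were higher and 2 lower at day 4 and 10 and 4 at day 15. At day 7 the counts were 12 and 4, and at day 11 they were 11 and 5. The shares of all genes higher and lower were 40.1% and 33% at day 4 and 39.7% and 29.3% at day 15. At days 7 and 11 these shares were 41.6% and 29.9%, and 42.7% and 29.7%. Mmp13, a collagenase, averaged 26.3 ± 23.96 CPM at day 7 and 0.525 ± 1.16 CPM in uninjured muscle (SD, n = 6 each), and Timp1, an inhibitor of such enzymes, averaged 61.0 ± 27.9 CPM at day 7 and 0.441 ± 0.416 CPM in uninjured muscle (SD, n = 6 each). Mmp16, a membrane-bound metalloproteinase, averaged 2.29 ± 1.18 CPM at day 7 and 0.0567 ± 0.0440 CPM in uninjured muscle (SD, n = 6 each). At day 7 the medians of the 5 lists were log2 fold changes of 0.83, 1.94, 2.33, 1.64 and 2.32 in the order above, where the median of all genes was 0.24. Macrophage markers, 5 genes, summed to 287 to 1000.4 CPM at day 7, against 8.92 to 19.4 CPM in uninjured muscle, and their part in these lists was not tested. Pericyte and smooth muscle markers, 5 genes, summed to 209 to 372 CPM at day 4, against 485 to 791 CPM in uninjured muscle. Rgs5 alone averaged 526 ± 88.5 CPM in uninjured muscle (SD, n = 6). At day 4 this list had 1 gene called higher and 3 lower, where 40.1% and 33% of all genes were. Satellite cell markers, 4 genes, summed to 88.1 to 147 CPM at day 4 against 45.0 to 72.9 CPM in uninjured muscle.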

How the data were processed

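RNA of 30 muscle samples was extracted and made into libraries by a commercial laboratory, per the labels' protocols. The deposited files hold raw counts per gene from the authors; STAR, edgeR and mm39 are named in the submitters' processing notes, with no versions. No source used here gives the counting tool, the annotation or how strand was handled, so genes that overlap or lie on opposite strands, such as Col4a1 and Col4a2, and near-identical genes may share reads. Of counts from 1 to 20, 65.5 to 77.5% were even in each library, as happens where each mate of a read pair adds 1. Counting intervals therefore use the number of read pairs, at 95% confidence, and cover counting error only.

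Genes were filtered with filterByExpr over the 10 groups, scaled by TMM and fitted over all 30 libraries with edgeR 4.0.16 (quasi-likelihood test) in R 4.3.3, with Benjamini-Hochberg adjustment over 17136 genes; sexes were averaged within a day. SE is the absolute log2 fold change divided by the square root of F. The procedure was also run on simulated data in which few genes changed, equally up and down. That run does not test the scaling where most genes change, as in these data. DESeq2 1.42.0, other scalings, filters, thresholds, the replicate number as a block, and fits lacking 1 library, served as alternatives.

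The collagens and all gene lists were chosen with earlier results of these data known. The genes named with full values are the 3 most abundant of each class, the 2 of each class with the largest change among those at 1 CPM or more in some group, and every collagen called lower; of each related list, the 3 called genes at 1 CPM or more with the largest change at day 7. Other collagens are given by level, change and counts. Promoter windows come from RefSeq (GRCm38.p6), exon lengths from GENCODE M21; mm39 coordinates were not used here.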

Additional observations from a re-analysis of the deposited data

Results flagged for a closer look

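In 8 of the 100 gene-by-time groups of 6 libraries looked at, over 20 collagens, 1 library stood apart from the other 5 by Dixon's criterion; chance gives about 1 in 20. The library labelled female day 4 replicate 2 accounted for 4 of them. It had 27.95 CPM of Col11a1, where the other day 4 libraries had 5.49 to 10.1 CPM. It had 0.135 CPM of Col4a3, where the others had 0.632 to 1.34 CPM. Its Col20a1 level was 2.64 CPM, where the others had 5.78 to 8.70 CPM, and its Col22a1 level was 1.82 CPM, where the others had 5.29 to 9.82 CPM. The library was also the lowest of day 4 in mature fibre markers, at 6311 CPM; the part of that in these values was not tested.

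Col9a1 had 0.348 CPM in female day 4 replicate 1, where the other day 4 libraries had 0.859 to 1.43 CPM, and 4.23 CPM in male day 7 replicate 1, where the other day 7 libraries had 1.19 to 1.82 CPM. Col6a2 had 1157 CPM in male day 7 replicate 2, where the others had 284 to 465 CPM. Col20a1 had 29.7 CPM in the library labelled female day 11 replicate 3, whose sex genes go against its label, where the others had 13.98 to 17.9 CPM.

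The response to injury differed between females and males by the interaction test for 3 collagens, each with a larger log2 fold change in females. The difference was 2.32 for Col4a5 at day 7, 2.61 for Col4a5 at day 15, 2.43 for Col5a3 at day 15 and 1.75 for Col15a1 at day 15.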

How the results depend on the processing

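The counts of collagens called higher against uninjured muscle stayed within 1.5 times under every alternative run, and no called gene changed sign when a library was left out. With library size alone as scaling, 1 collagen was lower at day 4, 0 at day 11, 0 at day 7 against day 4 and 8 at day 15 against day 4, and Col20a1 and Col22a1 at day 4 turned to log2 fold changes of 0.36 and 0.11. RLE scaling, no low-count filter and a fit of only the compared groups each left 0 lower at day 7 against day 4. An added 2-fold threshold left 3 lower at day 4, 1 called (1 higher, 0 lower) at day 7 against day 4, 0 called (0 lower) at day 15 against day 11, 5 called (5 higher, 0 lower) at day 15 against day 4, 0 called (0 lower) between uninjured sexes and 0 for the sex difference in response. By class, library size alone gave 5 basement membrane genes higher at day 11 and 7 FACIT genes higher at day 15, and the 2-fold threshold gave 1 basement membrane gene higher at days 4 and 7 and 4 FACIT genes higher at day 11. At day 4 library size alone left 0 basement membrane, 1 FACIT and 0 other genes lower, the 2-fold threshold left 1 FACIT gene lower, and a fit of only the compared groups gave 7 lower in all, 1 of them fibrillar and 2 basement membrane. That fit also called Col7a1 higher at day 15. Thinning to the smallest total left 2 called between uninjured sexes, 2 of them lower. DESeq2 called 4 (4 lower) at day 15 against day 11 and 5 for the sex difference in response. The cause of these changes was not tested, beyond the stricter threshold itself.

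Leaving out 1 library at a time gave 35 to 39 called at day 4 (4 to 8 lower), 36 to 38 at day 7 (1 to 2 lower), 37 to 40 at day 11 and 33 to 36 at day 15. It gave 9 to 19 at day 7 against day 4 (0 to 2 lower), 1 to 6 at day 15 against day 11 (0 to 1 higher, 1 to 5 lower), 16 to 21 at day 15 against day 4 (0 to 5 lower), 1 to 4 between uninjured sexes (1 to 4 lower) and 1 to 5 for the sex difference in response. The log2 difference of Col3a1 to Col1a1 at day 11 ran between -0.78 and -0.53, that of Col4a2 to Col4a1 between 0.13 and 0.27 at day 11 and 0.11 and 0.23 at day 15, and that of Col6a1 to Col6a3 at day 11 between 0.16 and 0.40.

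Libraries with the same replicate number showed no shared deviation on average, with a mean correlation of 0.0125 over 135 pairs (lowest -0.532). The mean was -0.00633 over 270 other pairs, and 12 of 30 lay nearest to libraries sharing their number. With 3 libraries per group this check is weak and cannot decide whether a number marks a shared animal or batch. The labels do not say what the numbers mean. With the replicate block 36, 37, 38 and 34 collagens were called at days 4, 7, 11 and 15, 13 at day 7 against day 4, 0 at day 11 against day 7, 2 at day 15 against day 11, 20 at day 15 against day 4, 3 between uninjured sexes and 3 for the sex difference in response. Col22a1 at day 11 was then at 1.03 (adjusted p = 0.0697). Depth limits Col10a1, Col6a4 and Col6a5, with 2, 4 and 14 counts over the uninjured libraries.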
